A study of Mus musculus with 21 samples.

Results

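Heart muscle transcripts were measured in RNA sequencing libraries from mouse lung and lung tumours, through 10 genes whose proteins build or drive the heart muscle cell. They were Myh6, Myl7 and Mybpc3 of the thick filament, Actc1, Tnnt2, Tnni3 and Tnnc1 of the thin filament, the calcium pump regulators Pln and Sln, and the hormone precursor Nppa. The genes were taken by symbol as a list of named heart muscle genes, with no threshold on their values. All 10 symbols were found among the 38924 symbols of the count table, and all 10 passed the filter on low counts that left 15770 genes for testing. Total counts over the 21 libraries ran from 350 for Pln to 49941 for Myh6.

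In the mouse, heart muscle is not limited to the heart: a sleeve of atrial-type muscle follows the pulmonary veins from the left atrium into the lung, and lung pieces that hold larger veins carry its transcripts. In such a cell, myosin heads on the thick filament pull on actin in the thin filament when calcium binds the troponin complex, and the calcium is then pumped back into the sarcoplasmic reticulum. Atrial and ventricular muscle use different myosin light chains, and atrial muscle releases the natriuretic peptide encoded by Nppa.

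The libraries came from female A/J mice, a strain that develops lung tumours readily, 22 weeks after treatment. The Control group received vehicle alone and the LPS group vehicle followed by lipopolysaccharide, a bacterial cell wall product that inflames the airways, at 5 µg per animal in 50 µL of phosphate buffered saline by the nose, 1 time per week from 1 week after the vehicle. The NNK group received NNK, a carcinogen of tobacco formed from nicotine, injected into the peritoneum 1 time at 100 mg/kg in 0.1 ml of saline. NNK_LPS received both, and 3 further groups received both plus silibinin (NNK_LPS_Sil), indole-3-carbinol (NNK_LPS_I3C) or the 2 together (NNK_LPS_Sil_I3C) in the diet at 20 µmol/g each. Each of the 7 groups had 3 libraries. Every group given NNK supplied RNA of dissected tumours, in each case a pool of 3 mice, whereas Control and LPS supplied normal lung, so NNK treatment and tumour tissue cannot be told apart. No label tells if a group's 3 libraries were separate animals, so p-values measure the spread between libraries, which may be technical.

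Library totals ran from 13.3 to 25.3 M counts. The lung label was met in all groups: Sftpc, the surfactant gene of alveolar type 2 cells, stood at 6208 CPM (counts-per-million of the scaled library total) or above in every library and Scgb1a1, of airway club cells, at 10705 CPM or above. Counts of mt-Atp8 divided by those of mt-Atp6 split the libraries into 3 sets that the labels do not name. It was 0.0206 to 0.0236 in 8 libraries (Control, NNK, LPS 1 and LPS 2), 0.0782 to 0.0876 in another 8 (LPS 3, NNK_LPS, NNK_LPS_Sil and NNK_LPS_I3C 1) and 0.117 to 0.135 in 5 (NNK_LPS_I3C 2 and 3 and NNK_LPS_Sil_I3C). Control and NNK lie wholly in 1 set and NNK_LPS in another, so comparisons between them follow the sets as well.

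The summed level of the 10 genes was high in Control and with I3C alone and low elsewhere. It was 512 ± 20.6 CPM in Control (mean ± SD, n = 3 for this and each value below), 163 ± 66.6 in NNK, 106 ± 22.0 in LPS and 103 ± 38.7 in NNK_LPS. With the dietary agents it was 128 ± 80.8 CPM in NNK_LPS_Sil, 430 ± 79.8 in NNK_LPS_I3C and 163 ± 80.1 in NNK_LPS_Sil_I3C. A large part of each sum was Myh6, with means of 286 CPM in Control, 53.3 in LPS, 73.4 in NNK_LPS and 248 in NNK_LPS_I3C. The 3 Control libraries stood at 491, 514 and 532 CPM and those of NNK_LPS_I3C at 358, 516 and 416, and no library of another group passed 254 CPM. The spread inside the tumour groups was wide: NNK 2 had 237 CPM against 144 and 108 in NNK 1 and 3, and NNK_LPS_Sil 1 had 221 against 71.0 and 93.1 in the other two. In whole tissue RNA, fewer heart muscle cells and less RNA per cell cannot be told apart.

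**Figure D1:**
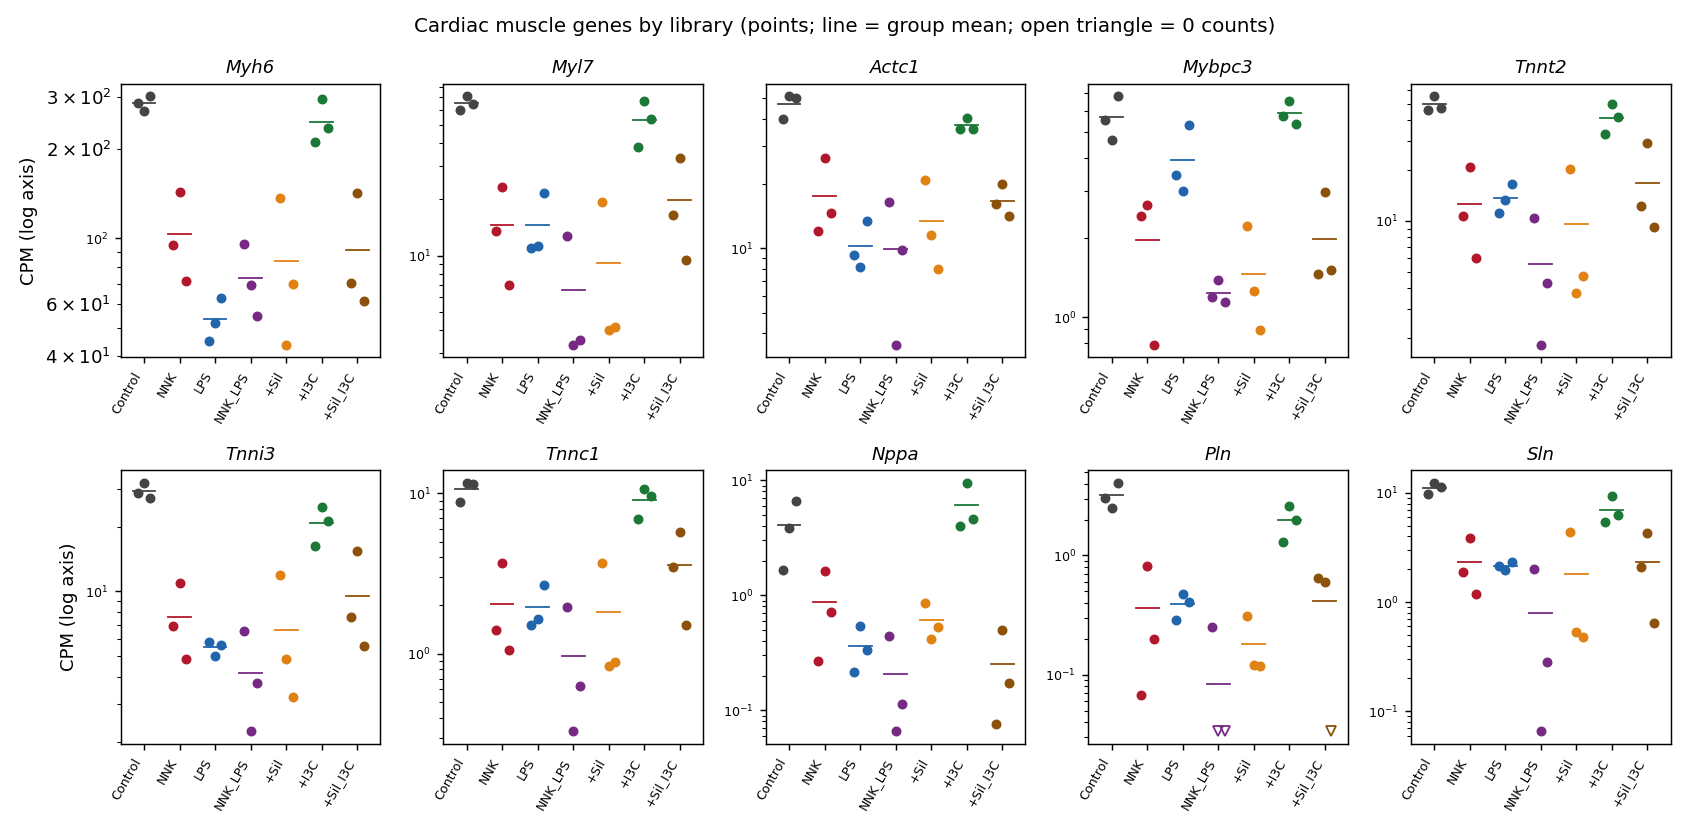
Level of each of the 10 heart muscle genes in counts-per-million (log axis) in the 21 libraries, by group; points are libraries, lines are group means and open triangles mark libraries with 0 counts. Control and +I3C points lie at the top of each panel, and in the Mybpc3 panel the LPS points, at 3.00 to 5.32 CPM, reach the range of Control.

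The genes lie on 8 chromosomes and are not neighbours in a cluster. On the mouse build GRCm38 they are Myh6 at chr14:54941921-54966927 (minus strand), Myl7 at chr11:5896637-5898782 (minus), Mybpc3 at chr2:91118144-91136516 (plus), Actc1 at chr2:114047282-114053548 (minus) and Tnnt2 at chr1:135836354-135852260 (plus). Tnni3 is at chr7:4518305-4524229 (minus), Tnnc1 at chr14:31208312-31211729 (plus), Pln at chr10:53337667-53345987 (plus), Sln at chr9:53850164-53854560 (plus) and Nppa at chr4:148000722-148002079 (plus). The stretches just before their RefSeq start sites are shown for 4 of them. A part of these stretches in the changes of the genes was not tested. RefSeq promoters of the build GRCm38.p6 matched 9 of the 10 genes, all but Sln. The RefSeq start of Actc1, and the window before it, lie inside the gene span given above. The 110 bases that end at the base before the start site are given 5′ to 3′ on the gene's strand, with capitals for the motifs named after them.
Myl7: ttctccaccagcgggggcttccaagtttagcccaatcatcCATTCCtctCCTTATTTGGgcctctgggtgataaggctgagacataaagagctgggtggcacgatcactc
Actc1: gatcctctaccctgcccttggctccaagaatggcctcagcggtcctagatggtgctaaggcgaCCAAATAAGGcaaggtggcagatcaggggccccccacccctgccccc
Tnnc1: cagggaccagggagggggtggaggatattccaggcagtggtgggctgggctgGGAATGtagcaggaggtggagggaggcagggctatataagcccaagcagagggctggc
Nppa: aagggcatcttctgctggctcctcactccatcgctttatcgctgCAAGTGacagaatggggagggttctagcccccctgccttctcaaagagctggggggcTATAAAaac
These windows are chr11:5898783-5898892 for Myl7, chr2:114052876-114052985 for Actc1, chr14:31208202-31208311 for Tnnc1 and chr4:148000612-148000721 for Nppa.

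Motifs were searched on both strands of the 250 bases before the RefSeq start site. A CArG box, the site of serum response factor, is capitalised at 61 to 52 bases before the start of Myl7 and 47 to 38 before that of Actc1. It was found in these 2 of the 9 genes and in 1.47% of 32851 promoters of all genes. A gene counted if any of its promoters matched, and Tnnt2 has a further promoter, whereas the shares of all are per promoter. CATTCC, the MCAT motif of the TEAD factors, was found in 4 of the 9 (Myh6, Myl7, Tnnc1, on its other strand as GGAATG, and Tnnt2) and in 12.6% of all promoters; in Myl7 it stands shortly before the CArG box without overlap. CAAGTG, bound by NKX2-5, was found in Myl7, Mybpc3 and Nppa and in 11.6% of all promoters, and TATAAA in Nppa and Pln and in 12.4%. The GATA factor motif AGATAA was found in Pln and Tnnt2 and in 9.99% of all promoters. AGGTGT, a T-box motif, was found in Nppa and Tnni3 and in 11.8%. No motif of the 6 was found in all 9 genes. A match describes the letters of the window and not binding.

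The muscle signal was atrial in its light chains. Over the 21 libraries, the atrial regulatory light chain Myl7 had 9892 counts and the atrial essential light chain Myl4 had 9194. Their ventricular counterparts Myl2 and Myl3 had 10 and 167 counts, and Myl2 had 0 counts in 13 libraries. In Control, Myl4 stood at 66.7, 74.6 and 57.9 CPM and Myl3 at 1.06, 2.17 and 1.23. Of the natriuretic peptide genes, Nppa had 700 counts and Nppb 40. Both stand in the list of atrial genes used here, so this pair does not separate atrium from ventricle. Skeletal muscle actin Acta1 had 152 counts beside 8113 for Actc1, and the slow skeletal troponin Tnni1 had 23 beside 4442 for the heart form Tnni3.

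Myh7, the beta myosin heavy chain, did not follow the heart list. It had 101916 counts and stood at 184, 172 and 200 CPM in Control, 294, 280 and 409 in NNK, and 363, 520 and 357 in NNK_LPS. Comparisons used edgeR's quasi-likelihood test with Benjamini-Hochberg adjustment over all genes tested, and each log2 fold change, in which a change of 1 is a doubling, is given with its standard error; an adjusted p under 0.05 passed. Myh7 was higher in NNK (0.82 ± 0.23, edgeR adjusted p = 0.0302) and NNK_LPS (1.16 ± 0.23, adjusted p = 0.00278) than in Control, and lower in LPS (-0.62 ± 0.23, adjusted p = 0.0358). Per count of Tnni3 there were 5.36 to 7.37 counts of Myh7 in Control and 55.5 to 233 in NNK_LPS.

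**Figure D2:**
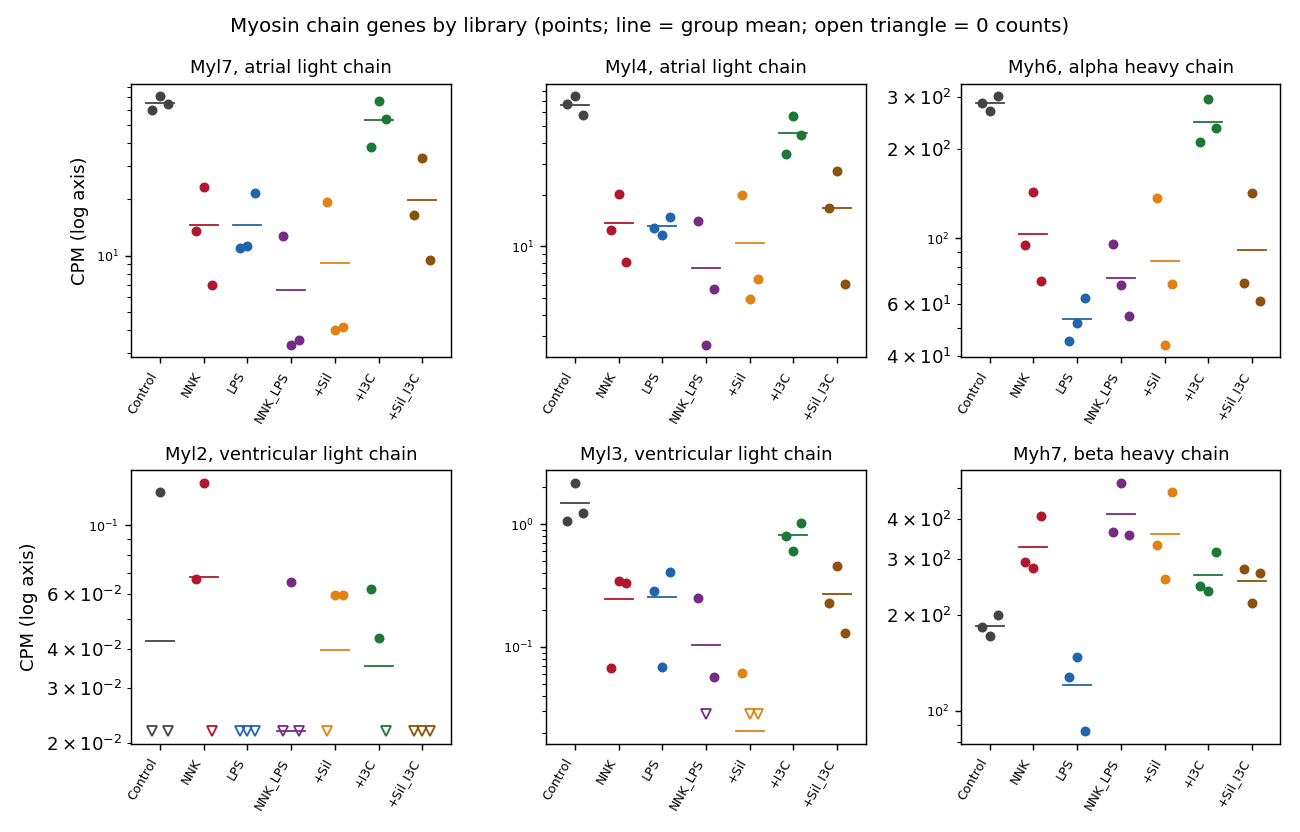
Level of 6 myosin chain genes in counts-per-million (log axes) in each library; points are libraries, lines group means and open triangles libraries with 0 counts. Myl7, Myl4 and Myh6 are highest in Control and +I3C, Myl2 is at 0 counts in 13 libraries and Myl3 at 2.17 CPM or less in all, and Myh7 is higher in NNK_LPS than in Control.

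Myh6 and Myh7 lie next to each other on chromosome 14, and their sequences are near copies. The end of Myh7 transcription and the start of Myh6 are 3756 bases apart. Aligned over 5817 positions, their coding sequences were identical at 5320 (91.5%), with a longest identical run of 245 bases. Of the 50-base windows of the Myh6 transcript, 22.6% also occurred in Myh7, and of the 100-base windows 11.4%. The following coding stretches, positions 4186 to 4305 of Myh6 and 4180 to 4299 of Myh7 counted from the first base of the start codon, show how few bases separate them, with the 3 that differ in capitals.
Myh6: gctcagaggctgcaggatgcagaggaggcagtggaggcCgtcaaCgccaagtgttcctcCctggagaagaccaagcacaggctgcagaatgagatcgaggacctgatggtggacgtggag
Myh7: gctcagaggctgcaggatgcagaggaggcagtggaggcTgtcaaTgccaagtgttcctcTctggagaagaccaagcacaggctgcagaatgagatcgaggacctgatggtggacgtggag
How reads from such stretches were assigned is not given in the sources used here, so Myh6 counts are uncertain where Myh7 is high.

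Nppa and Pln each overlap a transcript on the opposite strand, and the strand setting of the counts is not given in the sources used here. Of the 50-base windows of Nppa 53.4% occurred in Gm13054, and of those of Pln 56.1% occurred in Gm47644. No window of that length of Tnni3, Tnnc1, Tnnt2, Actc1, Myl7, Sln or Mybpc3 occurred in another gene's transcripts, though exons of Tnni3 share 86 bases with Dnaaf3. Mybpc3 starts 2387 bases after the end of Spi1, a myeloid transcription factor gene on the same strand.

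In normal lung the levels per length ran from the light chain Myl7 at the top to Pln at the bottom. Dividing each Control mean by exon length, Myl7 stood at 111 ± 9.31 CPM per kb, Myh6 at 42.6 ± 2.48 and Actc1 at 29.2 ± 3.80. Tnni3 followed at 14.2 ± 1.19, Tnnc1 at 10.2 ± 1.51 and Sln, which restrains the sarcoplasmic calcium pump in atrium and skeletal muscle, at 8.48 ± 0.96. Tnnt2 stood at 6.38 ± 0.67, Nppa at 4.68 ± 2.89, Mybpc3 at 1.36 ± 0.26 and Pln, the regulator of the same pump that prevails in ventricle, at 1.16 ± 0.29 CPM per kb. Mybpc3 and Pln lie within each other's spread, and the intervals of 1 SD around Tnnc1 and Sln overlap, as do those around Tnnt2 and Nppa. Lengths count all annotated exons, so genes with long alternative exons are understated and their place in this order is uncertain. This holds most for Tnnt2, divided by 7.752 kb although its longest coding transcript holds only 1151 windows of 50 bases.

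Tumours of NNK-treated mice held less of most heart transcripts than normal lung. By edgeR 9 of the 10 fell in NNK against Control, a call made for 6.63% of all genes tested in that direction. The median log2 fold change of the 10 was -2.07, beside -0.02 for all genes. In all 10 the groups did not overlap, NNK lying below Control, as in 20.5% of genes tested.

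Of the thick filament, Myl7 stood at 60.3, 71.2 and 64.9 CPM in Control and at 13.6, 23.4 and 6.97 in NNK. Every NNK library was below every Control library, and the gene fell 4.48-fold (log2 fold change -2.16 ± 0.63, adjusted p = 0.0363). Myh6, the alpha myosin heavy chain, stood at 287, 269 and 303 CPM in Control and 94.9, 143 and 71.9 in NNK (-1.47 ± 0.38, adjusted p = 0.0209). Mybpc3, which encodes the cardiac myosin-binding protein C that braces the thick filament, stood at 5.54, 4.66 and 6.84 CPM in Control and 2.41, 2.67 and 0.789 in NNK (-1.54 ± 0.38, adjusted p = 0.0172). In all 3 genes NNK 3 was the lowest library.

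The thin filament genes moved by similar amounts. Actc1, cardiac actin, stood at 40.2, 51.3 and 50.3 CPM in Control and 12.0, 26.2 and 14.6 in NNK (-1.43 ± 0.41, adjusted p = 0.0318). Tnni3, the inhibitory troponin subunit of the heart, stood at 28.7, 32 and 27.2 CPM in Control and at 6.89, 10.9 and 4.86 in NNK (-1.95 ± 0.45, adjusted p = 0.0136). Tnnt2, the subunit that anchors troponin to tropomyosin, stood at 45.9, 55.4 and 47.0 CPM and at 10.7, 21.0 and 5.98 (-1.98 ± 0.63, adjusted p = 0.0495). NNK 2 was the highest NNK library in each of these genes. Tnnc1, the calcium-binding subunit, fell from 8.80, 11.6 and 11.4 CPM to 1.40, 3.69 and 1.05 (-2.37 ± 0.61, adjusted p = 0.0207).

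Of the calcium pump regulators, Pln passed and Sln did not. Pln stood at 3.03, 2.49 and 4.07 CPM in Control and at 0.0669, 0.820 and 0.197 in NNK, from 1, 12 and 3 counts (-3.13 ± 0.75, adjusted p = 0.0152). Sln stood at 9.86, 12.4 and 11.3 CPM in Control and 1.87, 3.90 and 1.18 in NNK. Its difference of -2.27 ± 0.79 did not pass (adjusted p = 0.0659), though the groups did not overlap. Nppa stood at 1.67, 3.83 and 6.65 CPM in Control and 0.267, 1.64 and 0.723 in NNK (-2.21 ± 0.63, adjusted p = 0.0298), and its Control libraries differed more among themselves than those of any other of the 10 genes.

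The NNK calls rested on few libraries. Without NNK 1 or NNK 3 none of the 10 passed by edgeR, with smallest adjusted p of 0.050 and 0.0557 and medians of -1.87 and -1.76, while all 10 stayed at an unadjusted p under 0.05; without Control 2 there were 2, and without Control 1 or Control 3 there were 5.

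Lung of mice given LPS alone also held less of most heart transcripts than Control lung. In LPS against Control 9 of the 10 genes fell, beside 24.7% of all genes tested called lower, and the median of the 10 was -2.39, beside -0.02 for all genes. The exception was Mybpc3. The groups did not overlap in the other 9, as in 30.9% of genes tested. Both this comparison and the previous one use the same 3 Control libraries.

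Myh6 stood at 45.1, 51.9 and 63.0 CPM in the LPS libraries, the lowest group mean of the gene in the study, 18.6% of Control (-2.42 ± 0.39, adjusted p = 9.86e-05). Actc1 stood at 9.25, 8.12 and 13.3 CPM (-2.21 ± 0.42, adjusted p = 0.000439) and Tnni3 at 5.81, 4.98 and 5.66 (-2.42 ± 0.47, adjusted p = 0.000439). Tnnt2 kept slightly more, at 11.2, 13.2 and 16.5 CPM or 27.6% of Control (-1.86 ± 0.63, adjusted p = 0.0217). Myl7 stood at 11.0, 11.3 and 21.5 CPM (-2.16 ± 0.63, adjusted p = 0.00996) and Tnnc1 at 1.51, 1.64 and 2.69 (-2.44 ± 0.62, adjusted p = 0.00353), LPS 3 being the highest of the 3 in both. Nppa fell the most, to 0.215, 0.546 and 0.337 CPM (-3.44 ± 0.71, adjusted p = 0.000675). Pln stood at 0.287, 0.478 and 0.404 CPM (-3.01 ± 0.75, adjusted p = 0.00293), and Sln at 2.15, 1.98 and 2.36 (-2.37 ± 0.79, adjusted p = 0.0205), both with every LPS library far below Control.

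Mybpc3 stood at 3.44, 3.00 and 5.32 CPM in LPS, against 4.66 to 6.84 in Control, so the groups overlapped (-0.53 ± 0.36, 95% interval -1.31 to 0.25, adjusted p = 0.238). Per count of Tnni3 there were 0.593 to 0.940 counts of Mybpc3 in LPS and 0.146 to 0.252 in Control. Its upstream neighbour Spi1 stood at 107, 104 and 101 CPM in LPS and 23.9 to 36.9 in Control (1.76 ± 0.13, adjusted p = 2.63e-08). The part of reads from Spi1 in the Mybpc3 count was not tested.

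Tumours of mice given both NNK and LPS also held less of every heart transcript than normal lung. In NNK_LPS against Control all 10 genes fell, beside 12.6% of genes tested called lower, with a median of -3.24 beside -0.02. All 10 groups were apart, as in 21.4% of genes tested, and each of the 10 kept its call when any 1 library was left out.

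Myl7 stood at 12.7, 3.35 and 3.53 CPM in NNK_LPS, a 10.0-fold difference from Control (-3.33 ± 0.68, adjusted p = 0.00316). Tnnt2 stood at 10.4, 1.84 and 4.27 CPM (-3.16 ± 0.67, adjusted p = 0.00406) and Tnnc1 at 1.95, 0.328 and 0.626 (-3.45 ± 0.66, adjusted p = 0.00196). In these genes NNK_LPS 1 was the highest library by a wide margin. Pln had 4 counts in NNK_LPS 1 and 0 in both others (-5.16 ± 0.93, adjusted p = 0.00129), a fitted value that depends on these few counts. Nppa had 7, 1 and 2 counts (-4.26 ± 0.76, adjusted p = 0.00119) and Sln 32, 1 and 5 (-3.82 ± 0.88, adjusted p = 0.00605). The differences of Actc1 and Myh6 were smaller: Actc1 stood at 16.4, 3.54 and 9.79 CPM (-2.25 ± 0.42, adjusted p = 0.00178) and Myh6 at 95.5, 69.9 and 54.7 (-1.96 ± 0.38, adjusted p = 0.00240). Tnni3 lay between at 6.55, 2.23 and 3.76 CPM (-2.81 ± 0.47, adjusted p = 0.000915), and Mybpc3 stood at 1.20, 1.38 and 1.14 (-2.20 ± 0.40, adjusted p = 0.00131).

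The Control and NNK_LPS libraries belong to different sets by their mt-Atp8 to mt-Atp6 ratio. With a term for the set, the median was -3.80, all 10 kept their sign, and none passed by edgeR (smallest adjusted p = 0.0665, all 10 at an unadjusted p under 0.05), so group and set cannot be told apart here.

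**Figure D3:**
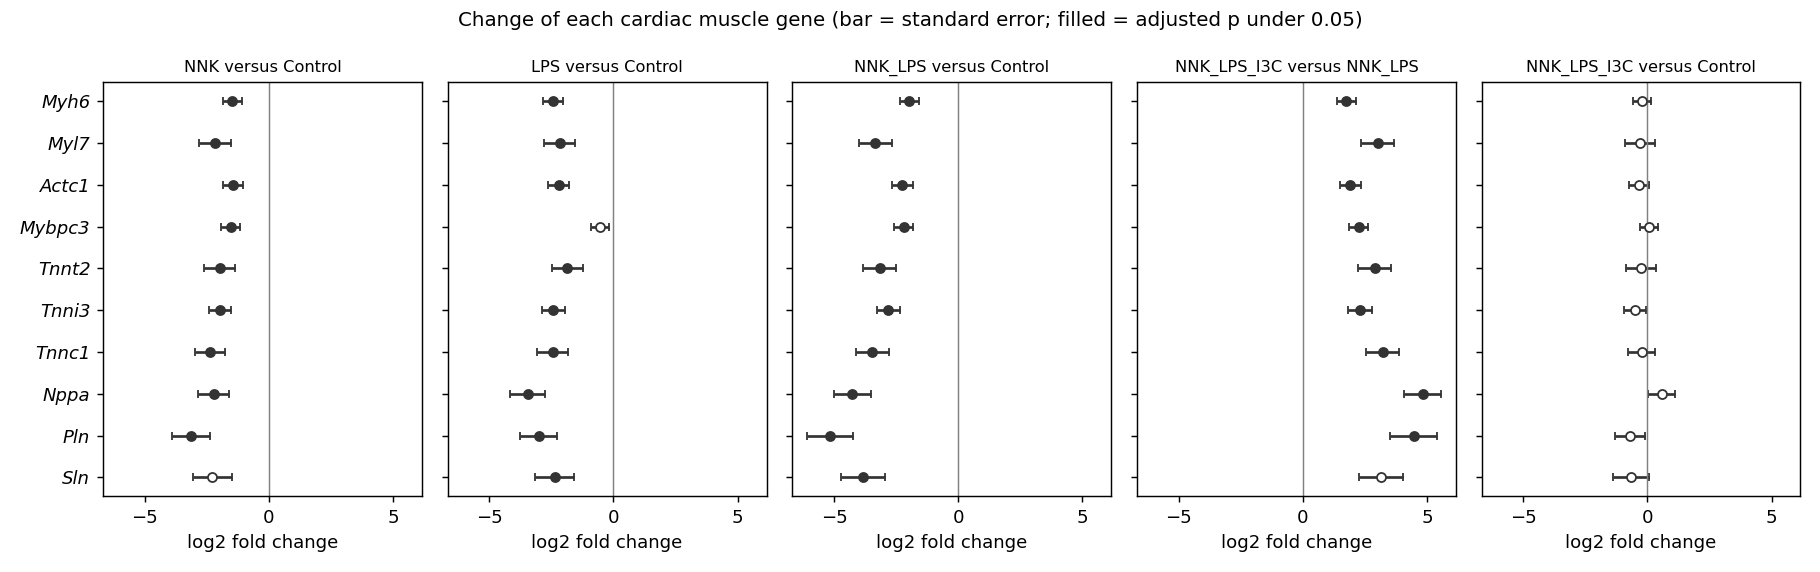
Log2 fold change of each heart muscle gene in 5 comparisons (x axis, log2 scale) with its standard error as a bar; filled points passed an adjusted p of 0.05. All points lie left of 0 in the first 3 panels and right of 0 for NNK_LPS_I3C versus NNK_LPS, and in the panel of NNK_LPS_I3C versus Control they lie between -0.69 and 0.58.

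Adding LPS to NNK was followed in the tumours by lower values that did not pass. In NNK_LPS against NNK all 10 log2 fold changes were below 0, with a median of -1.12, and none was called by edgeR, where 0.0951% of genes tested were called in either direction. One gene, Nppa (-2.05 ± 0.85, 95% interval -3.87 to -0.23), had an unadjusted p under 0.05, and DESeq2 called 0 of the 10. The median was -0.54 without NNK 2, -0.75 without NNK_LPS 2, and -2.02 without NNK_LPS 1, where 8 genes had an unadjusted p under 0.05 and none passed. With the set term it was -1.68. For Myh6 the interval ran from -1.30 to 0.31 and for Tnnt2 from -2.62 to 0.25. Against LPS lung, NNK_LPS tumours differed in 1 gene: Mybpc3 was lower (-1.66 ± 0.40, adjusted p = 0.00360), with 3.00 CPM or more in each LPS library and 1.38 or less in each NNK_LPS library, where 20.9% of genes tested were called lower. Without NNK_LPS 1 the count in that comparison was 5.

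The difference with LPS was tested between tumours and lung as an interaction. The change in tumours minus that in lung was above 0 in 9 of the 10 genes and passed in 1, Myh6 (1.93 ± 0.53, adjusted p = 0.0145), where 10.7% of genes tested were called in that direction. Myh6 went from a mean of 286 to 53.3 CPM with LPS in lung and from 103 to 73.4 in tumours. The values for Tnni3 (1.56 ± 0.66, adjusted p = 0.0930) and Actc1 (1.38 ± 0.59, adjusted p = 0.0992) did not pass. Mybpc3 had the value nearest to 0, -0.12 ± 0.55. The part of Myh7 reads in the Myh6 values, which were higher in tumours, was not tested.

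Tumours of mice given NNK and LPS and fed indole-3-carbinol held more of most heart transcripts than those without it. In NNK_LPS_I3C against NNK_LPS 9 of the 10 genes rose, where 1.22% of genes tested were called higher, and the median of the 10 was 2.96, beside 0.01 for all genes. In all 10 every NNK_LPS_I3C library lay above every NNK_LPS library, as in 12.2% of genes tested.

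Nppa showed the widest gap, at 4.04, 9.52 and 4.64 CPM with I3C against 0.441, 0.0656 and 0.114 without (4.84 ± 0.75, adjusted p = 0.00438), and NNK_LPS_I3C 2 was its highest library of the 21. Pln stood at 1.30, 2.61 and 1.99 CPM (4.48 ± 0.95, adjusted p = 0.0316). Sln, at 5.47, 9.30 and 6.31 CPM, did not pass (3.16 ± 0.87, adjusted p = 0.0649). Of the filament genes, Myl7 stood at 38.1, 67.1 and 53.7 CPM (3.02 ± 0.67, adjusted p = 0.0365), an 8.14-fold difference. Tnnc1 stood at 6.90, 10.6 and 9.58 CPM (3.22 ± 0.66, adjusted p = 0.0267) and Tnnt2 at 32.7, 49.7 and 41.4 (2.90 ± 0.67, adjusted p = 0.0388). NNK_LPS_I3C 1 was the lowest of the 3 in each of these. Tnni3 stood at 16.2, 24.6 and 21.2 CPM (2.31 ± 0.47, adjusted p = 0.0267), Actc1 at 36.0, 40.6 and 35.9 (1.92 ± 0.42, adjusted p = 0.0355) and Myh6 at 212, 295 and 236 (1.76 ± 0.38, adjusted p = 0.0355). Mybpc3 stood at 5.78, 6.56 and 5.38 CPM (2.25 ± 0.40, adjusted p = 0.0150).

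These calls depended on single libraries and on the sets. Without NNK_LPS 2 none passed by edgeR (smallest adjusted p = 0.0527, median 2.54, all 10 at an unadjusted p under 0.05), without NNK_LPS 3 there were 4, without NNK_LPS_I3C 1, 2 or 3 there were 2, 4 and 2, and fitted to these 2 groups alone there was 1. With a term for the set the median was 2.56 and none passed (smallest adjusted p = 0.0617, all 10 at an unadjusted p under 0.05), and with NNK_LPS_I3C 1 alone, the library of the same set as NNK_LPS, the median was 2.54 and 1 passed.

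Set beside normal lung, none of the 10 differed in NNK_LPS_I3C by edgeR, where 32.1% of genes tested were called in either direction, none had an unadjusted p under 0.05, and DESeq2 called 0. This comparison was added after the levels had been seen. The log2 fold changes ran from -0.69 in Pln to 0.58 in Nppa with a median of -0.28 (-0.11 without NNK_LPS_I3C 1), and the 95% intervals were wide, from -1.42 to 0.42 for Tnni3 and from -1.57 to 0.97 for Myl7. The groups did not overlap, lower with I3C, in 2 of the 10, beside 22.5% of genes tested. Control and NNK_LPS_I3C share no set of libraries, and with a term for the set the median was -1.02 (range -1.73 to 0.17), so the group difference and the set cannot be told apart.

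Silibinin alone was followed by no call. In NNK_LPS_Sil against NNK_LPS 0 of the 10 genes and 0% of all genes were called by edgeR, DESeq2 also called 0 of the 10, and none of the 10 had an unadjusted p under 0.05. All 10 log2 fold changes were above 0, with a median of 0.73. That sign rested on NNK_LPS_Sil 1, which stood at 19.4 CPM of Myl7 against 4.00 and 4.17 in the other two and 137 CPM of Myh6 against 43.8 and 70.2; without it the median was -0.19.

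With both agents no heart gene passed against NNK_LPS. In NNK_LPS_Sil_I3C against NNK_LPS none of the 10 was called by edgeR, where 0.552% of genes tested were called higher, 4 had an unadjusted p under 0.05 (Tnni3, Tnnc1, Tnnt2 and Myl7), and DESeq2 called 0. The median was 1.37, all 10 being above 0. It was 0.72 without NNK_LPS_Sil_I3C 2 and 0.95 without NNK_LPS 2, each with no gene at an unadjusted p under 0.05, 2.02 without NNK_LPS 1, and 0.81 with the set term, where 8 of the 10 were above 0. Tnni3 stood at 7.56, 15.3 and 5.58 CPM (1.18 ± 0.46, adjusted p = 0.217) and Tnnc1 at 3.47, 5.75 and 1.51 (1.88 ± 0.66, adjusted p = 0.166), with NNK_LPS_Sil_I3C 2 the highest in both. Nppa, at 0.0764, 0.502 and 0.173 CPM, stayed at the level of NNK_LPS (0.23 ± 0.96, 95% interval -1.83 to 2.29).

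Set directly against I3C alone, a comparison also added after the levels were seen, all 10 genes were lower with both agents and no library of the groups overlapped in any of them, as in 8.82% of genes tested. None passed by edgeR, which called 0% of genes tested, 9 had an unadjusted p under 0.05, and DESeq2 called 3 lower (Myh6, Nppa and Mybpc3). Nppa had the largest difference of the 10, -4.61 ± 0.69 (adjusted p = 0.0612), and the 9 others lay between -2.23 and -1.13. These 2 groups share 5 of their 6 libraries in 1 set, and the median was -1.57 with the set term and -1.43 without it.

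The levels of the 10 genes went up and down together over the libraries, while their proportions varied. Each was compared with the mean of the other 9 on the log2 CPM scale over the 21 libraries, which share group and depth. Pearson's r was 0.980 for Tnnc1, 0.974 for Myl7, 0.972 for Tnni3, 0.969 for Tnnt2 and 0.957 for Sln. It was 0.940 for Pln, 0.934 for Actc1, 0.898 for Myh6, 0.852 for Nppa and 0.826 for Mybpc3. Set per count of Tnni3, Actc1 varied least, from 1.30 to 3.00 (median 1.85), and Tnnt2 ranged from 0.765 to 2.92 (median 1.72). Mybpc3 ranged from 0.146 to 0.940 (6.45-fold), Sln from 0.0294 to 0.417 (14.2-fold), and Pln had 0 counts in 3 libraries.

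Of the ratios to Tnni3 that could be formed in every library without a 0, that of Nppa had the widest range. It ran from 0.0101 in NNK_LPS_Sil_I3C 1 to 0.386 in NNK_LPS_I3C 2. The ratio was 0.219 to 0.386 in NNK_LPS_I3C and 0.0582 to 0.245 in Control, and it was 0.0101 to 0.0327 in NNK_LPS_Sil_I3C, from 2, 11 and 4 counts of Nppa. Myh6 per count of Tnni3 was 8.42 to 11.1 in Control and highest, at 31.3, in NNK_LPS 2, the library with the most Myh7. Tnnt2 per count of Tnni3 was 1.93 to 2.92 in LPS and 1.60 to 1.73 in Control.

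**Figure D4:**
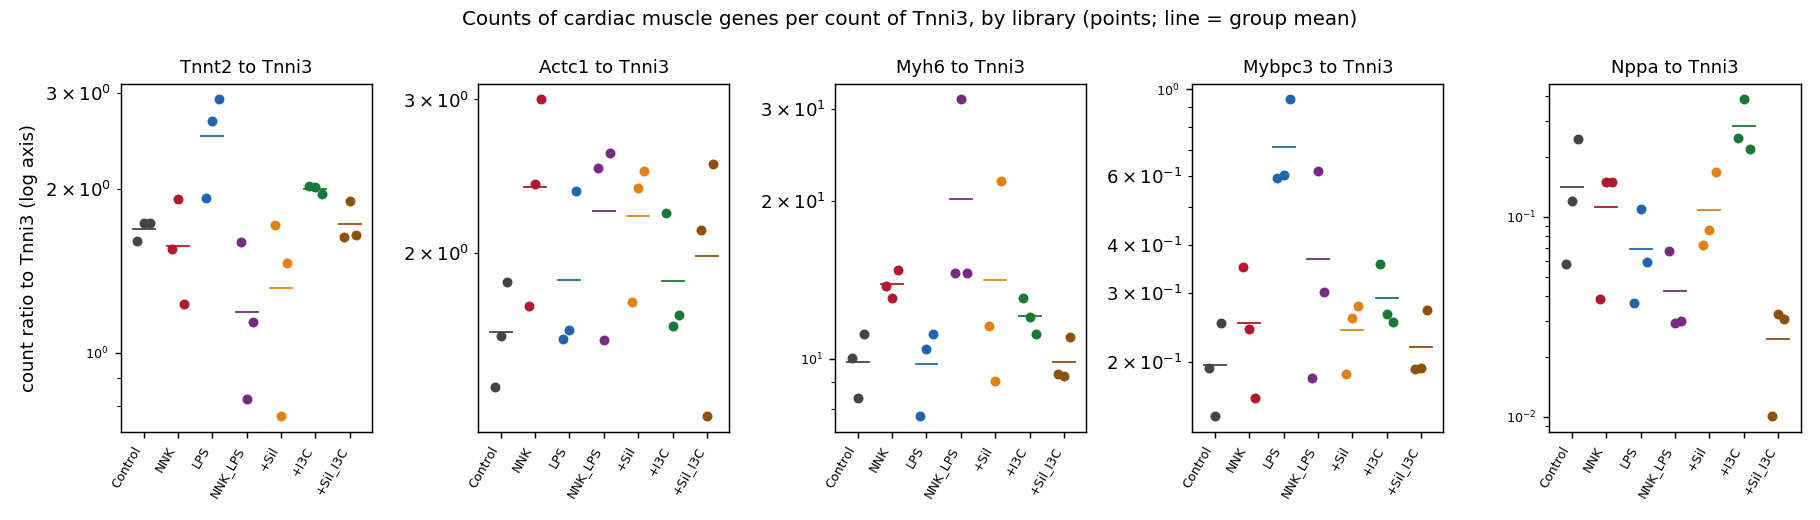
Counts of 5 heart muscle genes per count of Tnni3 in each library (log axes, different ranges); points are libraries and lines group means. Mybpc3 lies at 0.593 to 0.940 in LPS against 0.146 to 0.252 in Control, Myh6 peaks at 31.3 in NNK_LPS 2, and Nppa is lowest in +Sil_I3C.

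The genes whose pattern was most like the 10 were other muscle genes. Ranked by Pearson's r with the mean of the 10 over the 21 libraries, the first 10 others were Myl4 (0.984), Nrap (0.979), Ttn (0.975), Ckm (0.972), Actn2 (0.970), Kcnj3 (0.970), Mybphl (0.968), Ldb3 (0.966), Casq2 (0.965) and Csrp3 (0.964). After the group means were taken out, the values were 0.889 to 0.960. Ttn, titin, the spring of the sarcomere, stood at 46.6 to 50.7 CPM in Control, 7.02 to 9.90 in LPS, 3.07 to 12.1 in NNK_LPS and 25.4 to 43.7 in NNK_LPS_I3C. Mybphl, a myosin-binding protein gene of the atrium, stood at 6.75 to 8.00 CPM in Control, 1.02 to 1.22 in LPS, 0.0569 to 1.51 in NNK_LPS and 4.10 to 7.26 in NNK_LPS_I3C. Kcnj3, an atrial potassium channel gene, had 120 counts in Control, 18 in LPS, 8 in NNK_LPS and 128 in NNK_LPS_I3C. In each of the 3, Control and NNK_LPS_I3C lay above all LPS and NNK_LPS libraries. These genes were chosen by their likeness to the 10 over the same libraries, so this order is not separate evidence.

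Lists of other heart genes are given as counts of called genes, beside which 24.7% of all genes tested were called lower in LPS against Control, 12.6% lower in NNK_LPS against Control and 1.22% higher in NNK_LPS_I3C against NNK_LPS. Of 19 tested sarcomere and cytoskeleton genes outside the 10, 17 fell and none rose in LPS against Control (median -1.89), 15 fell and 1 rose in NNK_LPS against Control (-2.19), and 4 rose in NNK_LPS_I3C against NNK_LPS (2.05). The riser was Myh7. The abundant genes of that list differed by less: Tpm1, a tropomyosin made in many cells, stood at a mean of 415 CPM in Control and 388 in NNK_LPS (-0.10, not called), and Nebl, a nebulin-like protein of the thin filament, fell by 0.38 ± 0.11 (adjusted p = 0.0168). Ankrd1, a stretch-responsive gene, was at the Control level in LPS (-0.05 ± 0.36) and lower in NNK_LPS (-1.51 ± 0.38, adjusted p = 0.00919). Of 15 calcium handling and excitation genes 11 fell in LPS, 11 in NNK_LPS, and 4 rose with I3C. In that list Atp2a2, the calcium pump itself, stood at 326 to 368 CPM in Control and 237 to 352 in NNK_LPS (-0.23 ± 0.12, adjusted p = 0.164). Gja5, a connexin of atrium and arteries, did not rise with I3C (-0.62 ± 0.35, adjusted p = 0.334). Of 13 heart energy genes 11 fell and 1 rose in LPS, 10 fell and 1 rose in NNK_LPS, and 2 rose with I3C. The gene that rose in LPS was Atp5g1, a subunit of the mitochondrial ATP synthase (0.53 ± 0.13, adjusted p = 0.00241), and in NNK_LPS it was Cox6a2, of cytochrome oxidase (1.01 ± 0.16 in NNK_LPS, adjusted p = 0.000407).

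The heart transcription factors ranged from abundant, as Tbx3 at a mean of 67.3 CPM over all libraries and Gata6 at 43.6, to nearly undetected. Nkx2-5 had 14 counts in Control and 1 in NNK_LPS and was left out by the filter, as were Shox2, Isl1 and Hand2. Tbx20, a T-box factor of heart muscle, stood at 2.13 to 2.87 CPM in Control and 0.0656 to 0.629 in NNK_LPS (-2.86 ± 0.63, adjusted p = 0.00413), and its value with I3C did not pass (2.37 ± 0.63, adjusted p = 0.0569). Tbx5, Gata6 and Tbx3, which lung mesenchyme also expresses, fell in LPS, and Tbx5 there stood at 10.9 to 14.3 CPM against 19.4 to 23.3 in Control. In NNK_LPS these 3 did not pass (Tbx5 -0.23 ± 0.13, Gata6 -0.10 ± 0.12, Tbx3 -0.55 ± 0.27). Of 11 tested genes of atrium and pulmonary vein muscle, 4 of them among the 10, 9 fell in LPS, 7 fell and 1 rose in NNK_LPS, and 5 rose with I3C. Of the 7 outside the 10, 5 fell in LPS, 3 fell and 1 rose in NNK_LPS, and 2 rose with I3C. Of the 8 factors tested, 4 fell in LPS, 1 in NNK_LPS, and none was called with I3C, so the share in NNK_LPS was that of all genes. Of 6 tested genes of the list named ventricular, 5 fell in LPS, 3 fell and 1, Myh7, rose in NNK_LPS, and 3 rose with I3C. The 3 that fell in NNK_LPS and rose with I3C were Myl3, Fhl2 and Mylk3. Of these Mylk3, the cardiac light chain kinase, fell in NNK_LPS (-1.97 ± 0.34, adjusted p = 0.000960) and rose with I3C (1.44 ± 0.34, adjusted p = 0.0389).

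Markers of other tissues that a lung piece can carry moved with the heart genes to different degrees. The 8 adipocyte genes summed to 79.7 to 142 CPM in Control, 35.8 to 91.9 in NNK, 10.1 to 21.5 in LPS and 25.4 to 72.2 in NNK_LPS. With the agents they summed to 38.1 to 61.4 in NNK_LPS_Sil, 69.8 to 166 in NNK_LPS_I3C and 24.5 to 49.9 in NNK_LPS_Sil_I3C, and none of the 8 was at 0 in a whole group. In LPS 7 of the 8 fell, in NNK 0 and in NNK_LPS 1, and none was called with I3C (median 2.26). Adipoq stood at 7.28, 7.85 and 10.6 CPM in Control, 10.7, 13.3 and 6.08 in NNK_LPS_I3C and at 0.410 or less in LPS. The 10 smooth muscle genes summed to 768 to 815 CPM in Control, 695 to 857 in NNK, 439 to 491 in LPS, 447 to 723 in NNK_LPS and 834 to 888 in NNK_LPS_I3C; 4 fell in LPS, where 24.7% of all genes were called lower, 1 fell in NNK_LPS, where 12.6% were, and 2 rose with I3C, where 1.22% were called higher.

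The 14 skeletal muscle genes were near the floor, at 8.13 to 13.3 CPM summed in Control, 4.28 to 7.45 in NNK, 5.33 to 6.26 in LPS, 4.79 to 6.55 in NNK_LPS and 7.13 to 10.6 in NNK_LPS_I3C. Of the 8 tested, 3 fell and none rose in each of NNK, LPS and NNK_LPS against Control. In these comparisons 6.63%, 24.7% and 12.6% of all genes were called lower. With I3C none was called. In NNK_LPS the 3 were Myl1 (-3.62 ± 0.63), Acta1 (-2.24 ± 0.76) and Atp2a1 (-1.90 ± 0.48). Tnni2, the fast skeletal troponin and most abundant of the list, did not follow the heart genes, at a mean of 1.10 CPM in Control, 1.34 in LPS and 1.26 in NNK_LPS. Mesothelial genes summed to 353 to 536 CPM in Control, 359 to 440 in LPS, 213 to 314 in NNK_LPS and 182 to 281 in NNK_LPS_I3C. The 8 cartilage genes in the table stayed at 8.71 to 22.7 CPM summed in Control, NNK, LPS, NNK_LPS and NNK_LPS_I3C, and Col2a1 had 18 counts or fewer in each of these groups. Endothelial genes, 6 in all, summed to 3334 to 3555 CPM in Control, 1437 to 1650 in LPS, 1539 to 2541 in NNK_LPS and 1227 to 2161 in NNK_LPS_I3C, where the heart list was high. All 6 fell in LPS and 4 in NNK_LPS against Control, beside 24.7% and 12.6% of all genes, and none was called with I3C. The 5 alveolar type 2 genes summed to 25501 to 31119 CPM in Control, 42269 to 57824 in NNK_LPS and 30384 to 32109 in NNK_LPS_I3C. The 5 genes of club and ciliated cells summed to 31245 to 34284, 13098 to 21453 and 21532 to 30081 CPM in the same groups. With I3C 3 of the alveolar type 2 genes fell and 2 of the club and ciliated genes rose against NNK_LPS, and none went the other way. In that comparison 318 of 15770 genes tested were called in either direction. The part of vein, fat or other tissue in the pieces in the changes of the 10 genes was not tested.

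**Figure D5:**
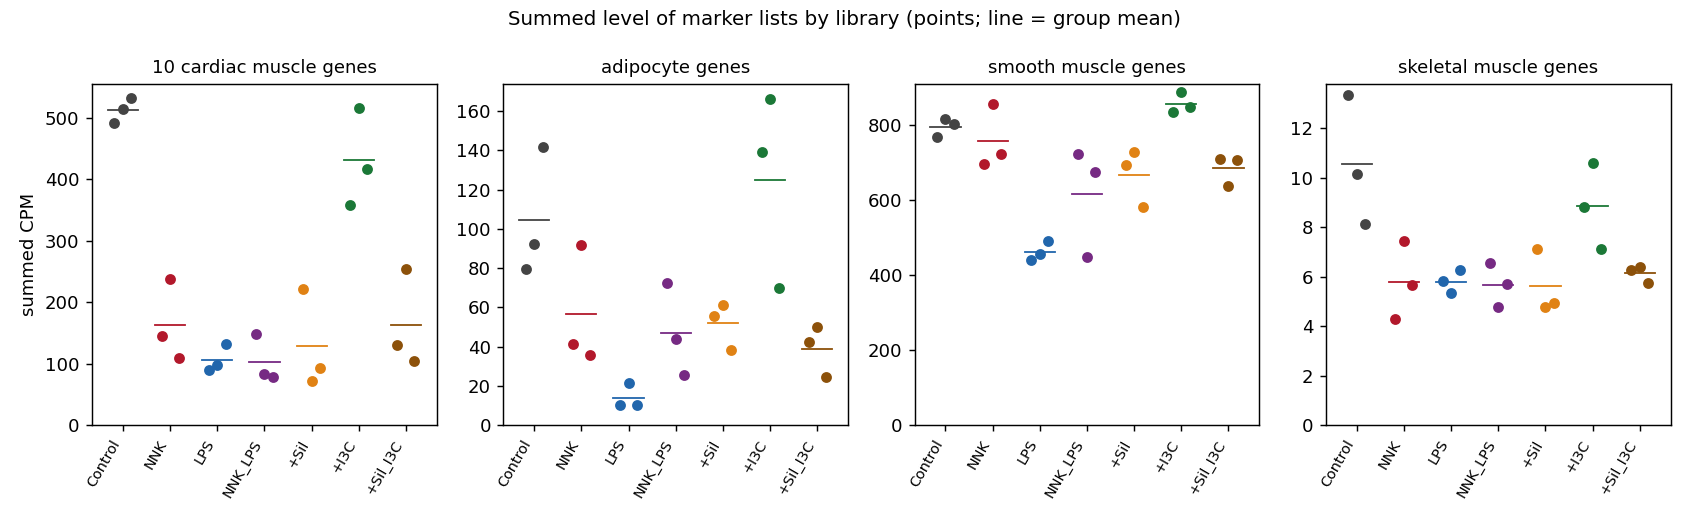
Summed level in counts-per-million (linear axes from 0) of the 10 heart muscle genes and of the adipocyte, smooth muscle and skeletal muscle lists in each library; points are libraries and lines group means. The heart list is at 491 to 532 in Control and 90.0 to 131 in LPS, the adipocyte list at 79.7 to 142 and 10.1 to 21.5, and the smooth muscle list at 768 to 815 and 439 to 491.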

How the data were processed

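The authors deposited 1 table of whole-number counts per gene symbol for 21 libraries, 3 in each of 7 groups. Per the labels, RNA was prepared with the TruSeq RNA kit, version 2, and per the submitters' processing notes the build was mm10. Not given in the sources used here were the aligner, counting tool, annotation and strand setting. Totals of 13.3 to 25.3 M counts set the counting precision, though reads that carry no molecular identifier may be copies of 1 molecule. Columns were assigned to samples by their titles.

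The counts were analysed with edgeR 4.0.16 in R 4.3.3. Low genes were removed by filterByExpr (minimum count 10), and library sizes were scaled by TMM, the trimmed mean of M-values. A robust quasi-likelihood model with 1 mean per group left 14 residual degrees of freedom, with a common coefficient of biological variation of 0.168. Benjamini-Hochberg adjustment ran over 15770 genes, and adjusted p under 0.05 was a call. CPM are counts-per-million of the scaled library size. Standard errors are the log2 fold change divided by the root of F. Correlations used log2 CPM with a prior count of 2. The fit was tested on simulated data. No 2 libraries of a group agreed within sampling noise (lowest chi-square per degree of freedom 5.50).

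All comparisons named in the text were tested; 2 of the 11, NNK_LPS_I3C against Control and NNK_LPS_Sil_I3C against NNK_LPS_I3C, were added after values had been seen. The 10 genes, the marker lists and the rule for named genes (from all 10, the 4 most abundant of each list, all heart transcription factors, and the 10 genes most like the 10) were chosen with earlier results of these data known. Other genes named (Acta1, Col2a1, Kcnj3, Mybphl, Myl2, Myl3, Nppb, Spi1 and Tnni1 among them) were chosen for their sequence, position or role. Alternatives were the relative log expression scaling, testing unfiltered genes, DESeq2 1.42.0, fitting only the compared groups, blocking on replicate number, thinning to the shallowest library, a term for the mt-Atp8 to mt-Atp6 set, the LPS libraries of the Control set only, leaving out each library and, added later, the 1 NNK_LPS_I3C library of the NNK_LPS set. Gene positions came from the GRCm38 annotation (GENCODE), and promoters from RefSeq.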

Additional observations from a re-analysis of the deposited data

Results flagged for a closer look

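Myh6 was the 1 heart muscle gene whose difference with LPS was itself different between tumours and normal lung. The interaction was 1.93 ± 0.53 on the log2 scale (edgeR adjusted p = 0.0145). In lung the gene fell with LPS (-2.42 ± 0.39), from 287, 269 and 303 CPM to 45.1, 51.9 and 63.0. In tumours the value was -0.49 ± 0.37, from 94.9, 143 and 71.9 to 95.5, 69.9 and 54.7, with overlapping libraries. With a term for the mt-Atp8 to mt-Atp6 set it was 1.69 ± 0.71 and did not pass (adjusted p = 0.114). Myh7, which shares 22.6% of the 50-base windows of Myh6, stood at 86.3 to 148 CPM in LPS and 357 to 520 in NNK_LPS. Its part in the result was not tested.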

How the results depend on the processing

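The signs of all 10 genes in NNK, LPS and NNK_LPS against Control and in NNK_LPS_I3C against NNK_LPS were kept under each alternative that was run; the cause of changes in calls was not tested unless named. With DESeq2 the number of genes called was 483 in NNK_LPS against NNK, 1027 in NNK_LPS_I3C against NNK_LPS, 665 in NNK_LPS_Sil_I3C against NNK_LPS and 72 in NNK_LPS_Sil_I3C against NNK_LPS_I3C, where edgeR called 15, 318, 214 and 0. DESeq2 called 2 of the 10 heart genes in the interaction and 3 in NNK_LPS_Sil_I3C against NNK_LPS_I3C, where edgeR called 1 and 0. Fitted to the compared groups alone, with fewer libraries to estimate the spread, NNK_LPS_I3C against NNK_LPS gave 1 heart gene and 5 genes in all, NNK_LPS_Sil_I3C against NNK_LPS 13 genes in all, and the interaction 2 heart genes; the fit of NNK_LPS_Sil_I3C against NNK_LPS tested 8 of the 10.

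With the set term, which takes degrees of freedom and is nearly aligned with the groups, heart genes called were 0 in NNK_LPS against Control, 0 in NNK_LPS_I3C against NNK_LPS and 0 in the interaction. Genes called in all were 24 in NNK_LPS against Control, 0 in NNK_LPS against NNK, 3979 in NNK_LPS against LPS, 60 in NNK_LPS_I3C against NNK_LPS, 2 in NNK_LPS_Sil_I3C against NNK_LPS and 30 in NNK_LPS_I3C against Control. Myh6 (-0.013) and Nppa (-0.58) in NNK_LPS_Sil_I3C against NNK_LPS and Mybpc3 (-0.70) in NNK_LPS_I3C against Control changed sign. With the NNK_LPS_I3C library of the NNK_LPS set alone, 1 heart gene and 79 genes were called against NNK_LPS.

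Replicate numbers here give the order of libraries within a group, which in some groups differs from the number in the title. They cannot show whether libraries were paired in the experiment. Of 63 same-numbered pairs 17 had deviations correlated over 0.1 (range -0.358 to 0.463), and 11 of 21 libraries correlated best with one of their own number. With the replicate number as a block, 37 genes were called in NNK_LPS against NNK and 1 gene, a heart gene, in NNK_LPS_Sil_I3C against NNK_LPS_I3C; all 10 heart genes were called in NNK against Control.

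Leaving out each library gave 0 to 9 heart genes called in NNK against Control, 1 to 2 in the interaction, 1 to 5 in NNK_LPS against LPS and 0 to 10 in NNK_LPS_I3C against NNK_LPS. Genes called in all were 404 to 1840 in NNK against Control, 2227 to 4359 in NNK_LPS against Control, 3080 to 4846 in NNK_LPS_I3C against Control, 0 to 223 in NNK_LPS against NNK, 21 to 794 in NNK_LPS_I3C against NNK_LPS, 30 to 816 in NNK_LPS_Sil_I3C against NNK_LPS and 0 to 2 in NNK_LPS_Sil_I3C against NNK_LPS_I3C. Signs that changed belonged to values that had not passed. In the interaction these were Tnnt2 (-0.15 to 1.26), Pln (-2.69 to 2.36), Sln (-1.24 to 1.41) and Mybpc3 (-0.50 to 0.16). In NNK_LPS_Sil against NNK_LPS they were Myh6 (-0.37 to 0.49), Tnni3 (-0.059 to 1.12), Tnnc1 (-0.17 to 1.86), Tnnt2 (-0.40 to 1.61), Actc1 (-0.033 to 0.98), Myl7 (-0.68 to 1.39), Sln (-0.63 to 3.23) and Mybpc3 (-0.21 to 0.46). Others were Actc1 in NNK_LPS against LPS (-0.58 to 0.37), Mybpc3 in NNK_LPS_I3C against Control (-0.065 to 0.22), and Myh6 (-0.18 to 0.52) and Nppa (-0.74 to 1.32) in NNK_LPS_Sil_I3C against NNK_LPS. Depth limits Pln, Nppa and Sln in the tumour groups, where libraries held as few as 0 or 1 counts.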
